A study of Mus musculus with 3 samples.

Results

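The cytosolic ribosomal protein genes encode the proteins of the 2 ribosomal subunits that translate messenger RNA in the cytoplasm. They were chosen by symbol alone: protein-coding mm10 genes named Rpl or Rps followed by a number, with the forms a, l or x where present, plus Rplp0, Rplp1, Rplp2 and Rpsa, and without the Rps6k kinases. This gave 83 genes of 21887 protein-coding genes, 52 of the large subunit and 31 of the small subunit, on 19 chromosomes. MEIS2 is a TALE-type homeodomain protein that binds DNA and regulates transcription. Its positions on chromatin were mapped by CUT&Tag, where the antibody recruits a transposase that cuts and tags the DNA beside the bound protein. Both MEIS2 libraries and the single library without a primary antibody were made from CD1 mice on embryonic day 14.5. The tissue was the lateral ganglionic eminence, the part of the ventral forebrain that gives rise to the projection neurons of the striatum. Each library started from 100000 cells, and no other genotype or treatment is named in the labels. The labels do not say whether the MEIS2 replicates came from separate embryos, and the antibody was a mouse polyclonal one. Tissue identity could not be checked on marker expression, since the files hold peak positions and no expression values.

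Ribosomal proteins are made in every growing cell, in near-equal amounts, and bind the ribosomal RNA in the nucleolus during assembly. Their messenger RNAs begin with a run of pyrimidines, the 5′ terminal oligopyrimidine (TOP) tract, through which growth signals control their translation. Their promoters are short, active in all dividing cells and known for sites of general factors such as GABP, YY1 and Sp1. Loss of single ribosomal proteins is known to affect some tissues more than others, as in the Rpl38 and Rpl24 mutant mice.

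The caller kept 7618406 tags in MEIS2 replicate 1, 6559629 in MEIS2 replicate 2 and 6337375 in the no-antibody library, and listed 78060, 82093 and 9869 peaks on chromosomes 1 to 19, X and Y. A gene was said to carry a peak where the summit lay within 1 kb of either end of the gene. A peak was called reproducible if, as listed in replicate 1, it shared 1 bp or more with a peak of replicate 2 and touched none of the no-antibody library. Pileup counts the extended tags that cover the summit and is not scaled to depth, while fold enrichment is the caller's ratio of that pileup to the local background. Both are the authors' own values, given for replicate 1 and then replicate 2. The comparison of 2 MEIS2 libraries with 1 control cannot be tested over samples, and genes are not replicates, so all shares and medians are descriptions. A gene without a listed peak had no excess past the caller's q cutoff of 0.05, which does not show that tags were absent there.

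Promoter sequences were held by RefSeq (GRCm38.p6) for 63 of the 83 genes, and the other 20 are described without one. The stretches of Rpl37, the gene whose weaker replicate had the highest fold enrichment, and of Rps23, whose summit lay nearest to a gene end, are shown beside that of Rps27, which had no MEIS2 peak. Each runs from 250 bases before the annotated start to 10 bases after it, 5′ to 3′ on the gene's strand. Capitals mark matches, on either strand, to the 6 motifs searched. The MEIS core was searched as TGACAG. The NF-Y motif was searched as CCAAT and the motif of Sp and Klf factors as GGGCGG. For Ets factors such as GABP the letters were CGGAAG. The core of YY1 sites was searched as ATGGCG, and the TATA box as TATAAA. In Rpl37 the last capital run holds an Sp and an Ets match that overlap.
Rpl37, chr15:5116363-5116622, + strand: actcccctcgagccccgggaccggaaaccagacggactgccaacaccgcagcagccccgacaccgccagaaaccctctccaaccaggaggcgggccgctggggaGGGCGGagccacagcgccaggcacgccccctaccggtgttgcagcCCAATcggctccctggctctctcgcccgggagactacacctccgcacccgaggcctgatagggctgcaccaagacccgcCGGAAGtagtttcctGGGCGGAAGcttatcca
Rps23, chr13:90922872-90923131, + strand: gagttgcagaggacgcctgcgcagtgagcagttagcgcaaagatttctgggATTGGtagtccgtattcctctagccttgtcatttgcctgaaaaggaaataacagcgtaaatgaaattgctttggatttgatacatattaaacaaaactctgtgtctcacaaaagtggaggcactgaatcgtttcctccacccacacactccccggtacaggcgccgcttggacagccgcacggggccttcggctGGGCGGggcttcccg
Rps27, chr3:90213639-90213898, − strand: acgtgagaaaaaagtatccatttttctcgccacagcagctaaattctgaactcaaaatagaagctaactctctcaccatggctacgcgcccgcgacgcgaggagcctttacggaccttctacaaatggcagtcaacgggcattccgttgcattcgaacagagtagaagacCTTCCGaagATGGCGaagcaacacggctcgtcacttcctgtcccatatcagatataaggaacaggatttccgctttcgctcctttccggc
At Rpl37 and Rps23 the whole stretch lay under the replicate 1 peak, which spanned chr15:5116264-5117023 and chr13:90922789-90923400. No MEIS core was found in these 3 stretches.

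A reproducible MEIS2 peak lay at an end of 58 of the 83 ribosomal protein genes (69.9%). The same was true of 11461 of all 21887 protein-coding genes, 52.4%. Taken library by library, 68 of the 83 genes carried a peak in MEIS2 replicate 1 (81.9%) and 60 in replicate 2 (72.3%), against 60.5% and 55.4% of all protein-coding genes. No ribosomal protein gene had a no-antibody peak within 1 kb of an end, and 0.27% of all protein-coding genes did. The no-antibody summit closest to any member lay 2845 bp from an end of Rpsa, with a pileup of 10 tags and a fold enrichment of 5.69. It was the only one within 10 kb of a member, and the median distance was 264923 bp.

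Large and small subunit genes carried peaks at close shares. Of the large subunit genes, 37 of 52 (71.2%) had a reproducible peak, 43 had one in replicate 1 and 38 had one in replicate 2. Of the small subunit genes, 21 of 31 (67.7%) had a reproducible peak, 25 had one in replicate 1 and 22 had one in replicate 2. The gap between these shares amounts to about 1 gene of the small subunit, and it was not tested.

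**Figure D1:**
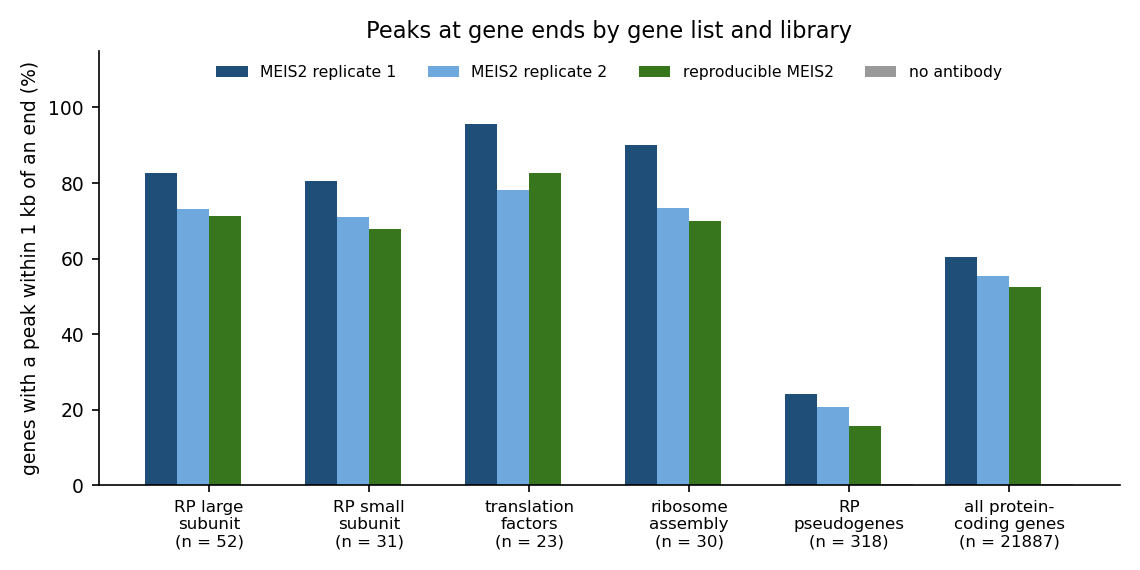
Share of genes with a peak whose summit lies within 1 kb of a gene end (percent, y axis), by gene list (x axis) and library (bars; RP, ribosomal protein). Large and small subunit stand at 71.2% and 67.7% for reproducible peaks, near ribosome assembly genes at 70.0% and below translation factors at 82.6%. Ribosomal protein pseudogenes stand at 15.7% and all protein-coding genes at 52.4%, and the no-antibody bars are at or near 0 in all lists.

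The peaks at most ribosomal protein genes did not exceed the median gene-end peak in pileup. Where a gene had more than 1, the peak with the higher fold enrichment in its weaker replicate was used. Pileup ran over the 58 genes between 6 and 24 tags in replicate 1 (median 17.5) and between 5 and 23 in replicate 2 (median 10). The medians over all protein-coding genes with such a peak were 19 and 12 tags, and the highest values there were 140 and 126, far above any member. Pileup was above those all-gene medians at 16 of the 58 genes in replicate 1 and at 18 in replicate 2. Fold enrichment at the 58 genes had medians of 7.55 and 5.79, against 7.72 and 6.49 over all protein-coding genes. Of the 58 genes, 25 lay above the all-gene median of fold enrichment in replicate 1 and 15 in replicate 2.

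The small subunit genes had the slightly higher medians, with wide overlap between the subunits. Median pileup was 17 and 10 tags over the large subunit genes and 18 and 11 tags over the small subunit genes. Median fold enrichment was 7.26 and 5.63 over the large subunit genes and 7.89 and 6.35 over the small subunit genes. In replicate 1 the quartiles were 5.63 and 9.27 for the large subunit and 6.64 and 9.68 for the small subunit. The ranges of the subunits overlapped over most of their length in both replicates.

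Pileup was higher in replicate 1 than in replicate 2 at 56 of the 58 genes, equal at Rpsa and lower at Rpl6. The median ratio of replicate 1 to replicate 2 pileup was 1.5, while replicate 1 had 1.16 times the tags of replicate 2. Over all protein-coding genes with a reproducible peak the median ratio was 1.47. Across the 58 genes the fold enrichments of the replicates had a Spearman correlation of 0.447 and the pileups one of 0.566, each gene's pair of values sharing its locus. Over all protein-coding genes with a reproducible peak these correlations were higher, 0.626 and 0.711. The order of the 58 genes thus differed in part between the replicates, as the plot of fold enrichment by gene shows.

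**Figure D2:**
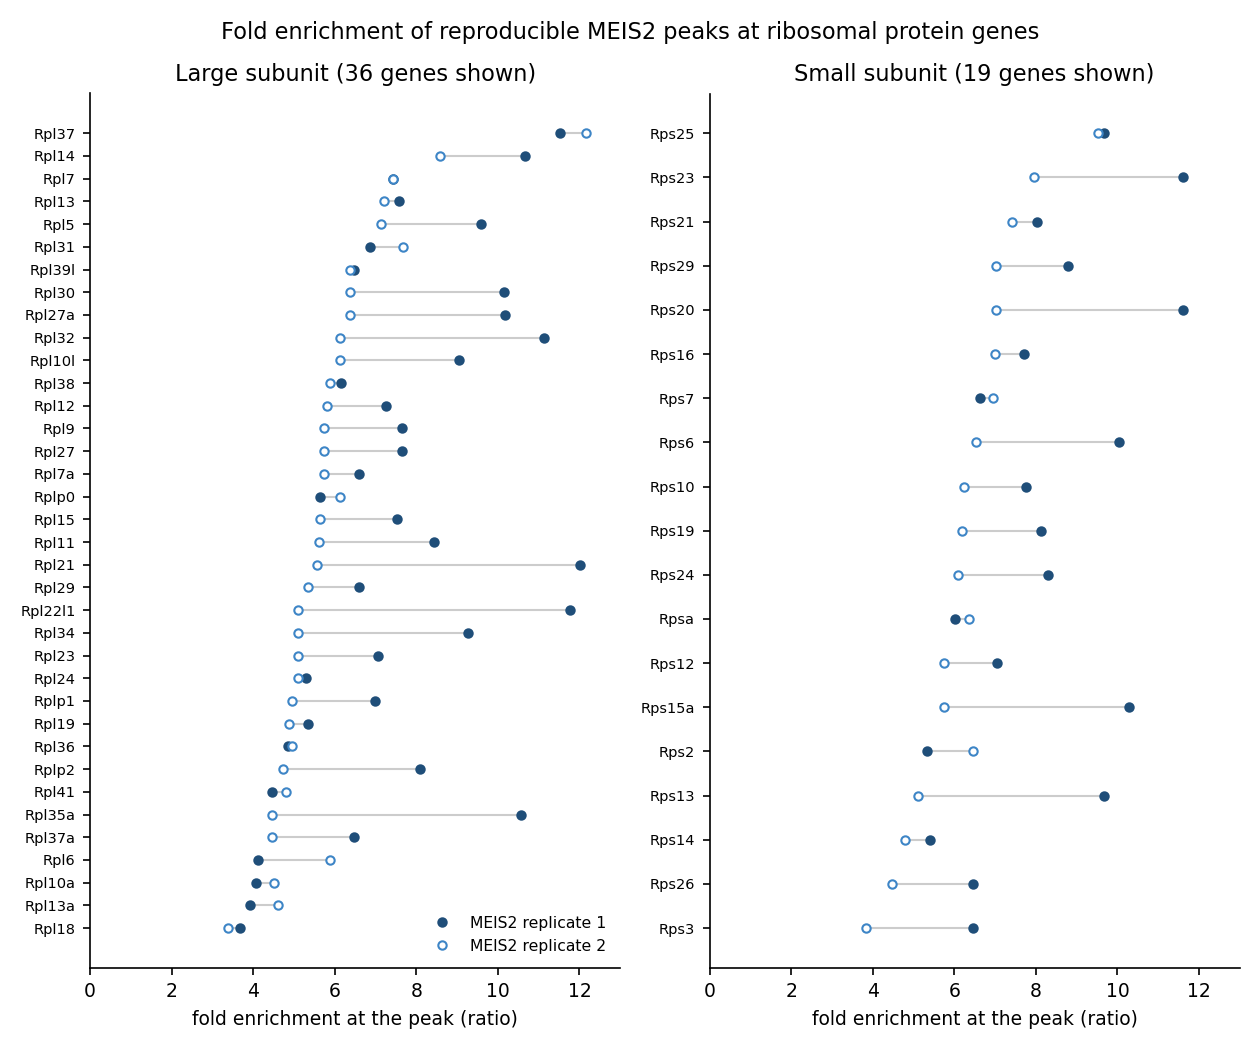
Fold enrichment (x axis, the caller's ratio) of the reproducible MEIS2 peak at large and small subunit genes (y axis, all but a few of those with such a peak), in replicate 1 (filled) and replicate 2 (open). Rpl37 stands highest on the lower of its values, at 11.5, and the largest gaps between replicates are at Rpl21 and Rpl22l1.

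Rpl37 stood first by the fold enrichment of its weaker replicate, and its replicate 2 value was the highest of all members. It encodes a zinc-binding protein of the large subunit. Its peak had pileups of 24 and 23 tags and fold enrichments of 11.5 and 12.2. The summit lay 229 bp outside the gene, and 178 bp from an end of the neighbouring gene Card6. Next came Rpl14, with pileups of 19 and 13 tags and fold enrichments of 10.7 and 8.58, its summit 184 bp inside the gene.

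The third large subunit gene in this order was Rpl7, with pileups of 23 and 17 tags and fold enrichments of 7.42 and 7.42. Its peak was the widest at any member, 1448 bp in replicate 1 and 1269 bp in replicate 2. The summit was also the farthest from its gene, 957 bp outside Rpl7 and 492 bp from an end of Rdh10, a retinol dehydrogenase gene. Rpl13 followed, with pileups of 20 and 16 tags and fold enrichments of 7.58 and 7.20. Rpl5, whose protein joins the small ribosomal RNA of the large subunit before assembly, had pileups of 16 and 11 tags and fold enrichments of 9.58 and 7.14. Rpl11, the partner of Rpl5 in that particle and with it a binder of the p53 regulator Mdm2, had pileups of 18 and 10 tags and fold enrichments of 8.42 and 5.62.

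Several large subunit genes were tall in replicate 1 and modest in replicate 2. Rpl21 had pileups of 23 and 8 tags and the highest replicate 1 fold enrichment of all members, 12.01 against 5.57 in replicate 2. Rpl32 had pileups of 22 and 9 tags and fold enrichments of 11.1 and 6.13. Rpl27a had pileups of 23 and 10 tags and fold enrichments of 10.2 and 6.36. These genes rank among the first by replicate 1 pileup, yet in replicate 2 all 3 lay at or below the median of 10 tags.

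The stalk of the large subunit, which recruits the elongation factors, is built from Rplp0, Rplp1 and Rplp2 with Rpl12 at its base, and all 4 genes carried reproducible peaks. Rplp0 had pileups of 12 and 11 tags and fold enrichments of 5.63 and 6.14. Rplp1 had 12 and 7 tags, with fold enrichments of 6.99 and 4.95. Rplp2 had 20 and 9 tags, with fold enrichments of 8.08 and 4.72. All 3 summits lay close to the gene end, at 126, 14 and 25 bp, and that of Rplp2 was 61 bp from an end of Pidd1. Rpl12 had 18 and 11 tags, with fold enrichments of 7.26 and 5.80. Its summit lay 91 bp inside the gene and 149 bp from an end of Lrsam1.

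Rpl38 and Rpl24, the genes of the mouse mutants with patterning and pigment defects, both carried modest peaks. Rpl38 had pileups of 15 and 13 tags and fold enrichments of 6.15 and 5.89. Its summit lay 887 bp inside the gene's outer end, but 125 bp after the annotated start of the promoter table, which is 762 bp inside that end. Rpl24 had pileups of 8 and 7 tags and fold enrichments of 5.29 and 5.10, near the lower end of the members. Rpl29 had the next most distant large subunit summit, 755 bp inside the gene, with pileups of 14 and 9 tags and fold enrichments of 6.60 and 5.33.

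Among small subunit genes, Rps25 and Rps23 stood first. Rps25, known for its part in initiation at viral internal ribosome entry sites, had pileups of 21 and 15 tags and fold enrichments of 9.68 and 9.52. Its summit lay 560 bp outside the gene and 394 bp from an end of Trappc4. Rps23, a protein of the decoding centre, had pileups of 20 and 13 tags and fold enrichments of 11.6 and 7.95. Its summit was 1 bp from the gene end, under the promoter printed above.

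Rps21 and Rps29 were also among the first of the small subunit. Rps21 had 20 and 19 tags, with fold enrichments of 8.03 and 7.40. Rps29 had 17 and 10 tags, with fold enrichments of 8.78 and 7.01. Rps21 was thus nearly level between the replicates, unlike most members.

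By replicate 1 pileup, Rps19, Rps10, Rps20 and Rps6 led the small subunit. Rps19, the gene most often mutated in Diamond-Blackfan anaemia in humans, had pileups of 24 and 14 tags and fold enrichments of 8.11 and 6.18. Rps10 had 23 and 13 tags, with fold enrichments of 7.75 and 6.23. Rps20 had 22 and 10 tags, with fold enrichments of 11.6 and 7.01. Rps6, the substrate of the S6 kinases, had 22 and 12 tags and fold enrichments of 10.0 and 6.54. Replicate 2 was lower at all 4 of these genes.

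Rps6 and Rpl7a were the members with 2 reproducible peaks. The second Rps6 peak had its summit 865 bp outside the gene, with pileups of 12 and 7 tags and fold enrichments of 5.72 and 3.99. Rpl7a had a peak with its summit 120 bp outside the gene, with 19 tags and a fold enrichment of 6.60 in replicate 1, and another 476 bp inside it, with 10 tags and 3.42. In replicate 2 a single peak of 707 bp overlapped both, with 13 tags and a fold enrichment of 5.73, so the 2 peaks were not separate there.

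By the weaker replicate's fold enrichment, Rpl18 and Rps3 stood lowest. Rpl18 had pileups of 18 and 12 tags but fold enrichments of 3.68 and 3.38, the lowest in the large subunit. Rps3, a protein of the messenger RNA entry channel, had 10 and 5 tags and fold enrichments of 6.47 and 3.83, the lowest replicate 2 value in the small subunit. A low fold enrichment thus went with a low pileup at Rps3 and not at Rpl18. Other members lay between these ends. In the large subunit, Rpl9, Rpl10a, Rpl23, Rpl27, Rpl30 and Rpl31 had pileups of 12 to 19 tags in replicate 1 and 7 to 14 in replicate 2, with fold enrichments of 4.08 to 10.1 and 4.50 to 7.66. In the small subunit, Rps7, Rps12, Rps13, Rps14, Rps15a and Rps24 had pileups of 11 to 19 tags and 7 to 11 tags, with fold enrichments of 5.39 to 10.3 and 4.80 to 6.95.

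Member peaks were broad compared with the shortest peak the caller could report, 172 bp in replicate 1 and 162 bp in replicate 2. Width had medians of 574 bp and 399.5 bp over the 58 genes, against 613 bp and 496 bp over all protein-coding genes with a reproducible peak. The large subunit genes had medians of 539 and 381 bp and the small subunit genes 602 and 437 bp. Peaks were wider in replicate 1 at 45 of the 58 genes. After Rpl7, the widest large subunit peaks were at Rpl15, with 1137 and 643 bp, and Rpl37, with 760 and 269 bp. The Rpl15 summit lay 300 bp outside the gene and 150 bp from an end of Nkiras1.
Among the widest small subunit peaks were those at Rps25 with 963 and 239 bp and Rps29 with 857 and 892 bp. Rps25 was therefore broad in replicate 1 only. Several replicate 2 peaks, at Rps3, Rpl37a and Rpl35a among others, were at or 1 bp above the caller's minimum.

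**Figure D3:**
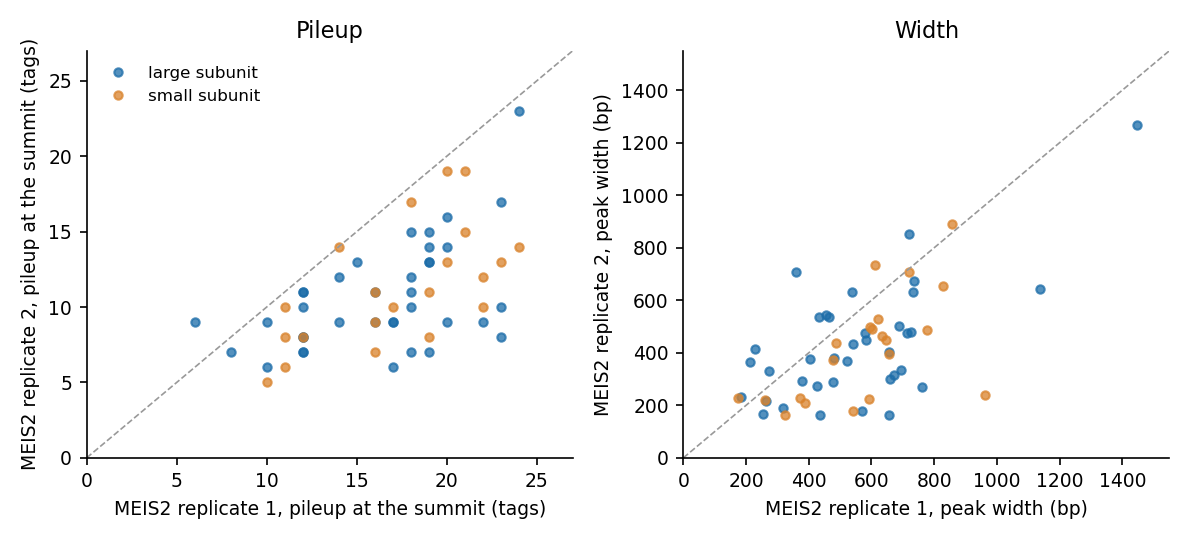
Pileup at the summit (left, tags) and peak width (right, bp) of the 58 ribosomal protein genes with a reproducible peak, in MEIS2 replicate 1 (x axes) and replicate 2 (y axes), with equality as a dashed line. Pileup lies below the line at 56 genes, and Rpl7 is the widest point at 1448 and 1269 bp.

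The summits gathered just inside the gene. The median distance to the nearer gene end was 212.5 bp, 229 bp for the large subunit genes and 206 bp for the small subunit genes, against 223 bp over all protein-coding genes with a reproducible peak. The summit lay inside the gene at 47 of 58 (81.0%), against 75.8% over all protein-coding genes. It was inside at 28 of 37 large subunit genes (75.7%) and 19 of 21 small subunit genes (90.5%). Within 400 bp of an end lay 48 of the 58 summits (82.8%), against 72.5% over all protein-coding genes. Within 100 bp the order was reversed, with 12 of the 58 (20.7%) against 24.3%. Replicate 2 summits lay a median of 71 bp from those of replicate 1 and at most 291 bp, at Rpl34.

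**Figure D4:**
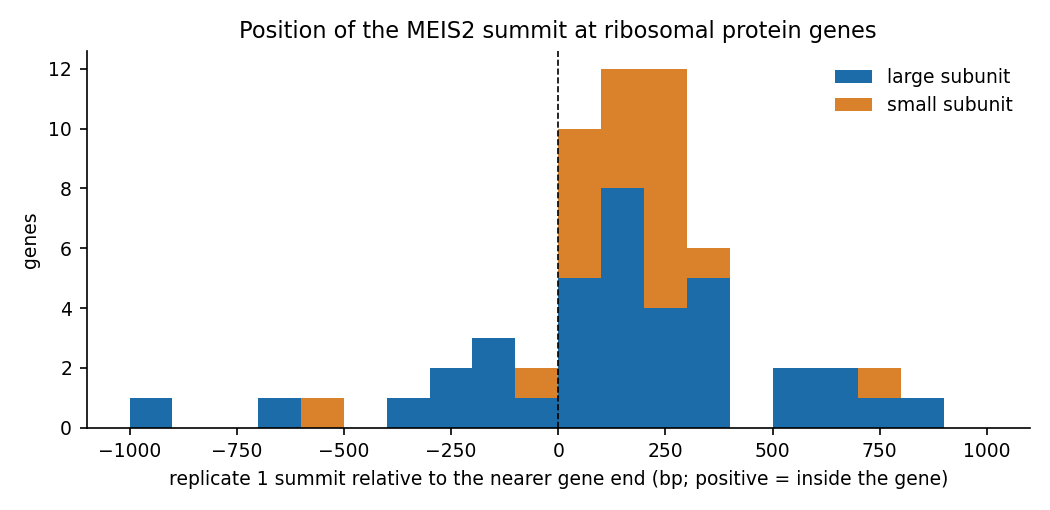
Number of ribosomal protein genes (y axis, stacked by subunit) by the position of the replicate 1 summit relative to the nearer gene end (x axis, bp, positive inside the gene; 100 bp bins). Of 58 summits, 47 lie inside the gene and 48 lie within 400 bp of an end.

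The nearest summits were at small subunit genes. After Rps23, Rps16 had its summit 3 bp from the end, with pileups of 16 and 11 tags and fold enrichments of 7.71 and 7.01. Rpsa, whose protein is also known as the laminin receptor precursor, had its summit 9 bp outside the gene, with 14 tags in both replicates and fold enrichments of 6.01 and 6.35. In the large subunit Rpl39l, at 77 bp, came after Rplp1 and Rplp2. The farthest small subunit summits were at Rps2 (785 bp inside), Rps25 (560 bp outside) and Rps26 (315 bp inside). Rps26 had pileups of 11 and 6 tags and fold enrichments of 6.45 and 4.46.

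Where the strand was known, nearly all peaks lay at the 5′ end. Of the 45 genes with a reproducible peak and a strand, 43 had it at the 5′ end (95.6%), against 92.2% of 9135 protein-coding genes. The exceptions were Rpl41 and Rps2. Rpl41, which encodes the smallest ribosomal protein, had its summit 619 bp beyond its 3′ end and 517 bp from an end of Zc3h10, with pileups of 12 and 10 tags. The Rps2 summit lay 785 bp inside the 3′ end, with 18 and 17 tags. The 5′ end here is the outermost base of the gene, which can lie far before the start in the promoter table. At Rpl18 that start lies 2604 bp inside the outer end, and at Rpl19 4707 bp inside it. Both peaks count as 5′ peaks, though their replicate 1 summits were far upstream of those starts. Relative to the annotated start, the median summit lay 134 bp downstream in replicate 1 and 181 bp downstream in replicate 2. It was downstream at 36 of 45 genes in replicate 1 and at 33 in replicate 2. The start base itself lay under the peak at 32 genes in replicate 1, at 22 in replicate 2 and at 21 in both. Positions relative to the annotated start were counted for members only. With no all-gene share beside them, they are a description and not a trait of the members.

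Some of these ends are shared with a neighbour. Another protein-coding gene had an end within 1 kb of the summit at 13 of the 58 genes, and at 7 of them that end was the nearer one. Those 7 were Rpl37, Rpl7, Rpl7a, Rpl15, Rpl19, Rpl41 and Rps25, and a peak there cannot be given to 1 gene of the pair. With all peaks nearer to another protein-coding gene left out, 52 of the 83 genes kept a reproducible peak, 32 of the large and 20 of the small subunit. These counts of shared ends are given for members only. The filter was not applied to all protein-coding genes, so its count cannot be set beside their unfiltered share.

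Of the 25 genes without a reproducible peak, 14 had no peak at an end in either MEIS2 library. The classes of missing peak are given for members only, with no all-gene share beside them. Over all protein-coding genes, 60.5% had a peak in replicate 1, 55.4% in replicate 2 and 52.4% a reproducible one. The 14 genes without any peak are therefore a description and not a trait of the members. These genes were Rpl3, Rpl7l1, Rpl10, Rpl17, Rpl22, Rpl23a, Rpl32l, Rpl36a and Rpl39 in the large subunit and Rps9, Rps27, Rps27a, Rps27l and Rps28 in the small subunit. Some had a peak in both replicates beyond the 1 kb limit. The nearest summits at Rpl22 lay inside the gene, 1524 and 1463 bp from an end, with pileups of 19 and 15 tags. At Rps27l they lay inside the gene, 1843 and 1542 bp from an end, with 13 and 10 tags, and its annotated start is 1462 bp inside its outer end. At Rpl17 they lay 1844 and 1868 bp inside, with 25 and 13 tags. Just outside the limit stood Rpl7l1, with summits 1034 and 1345 bp away and 15 and 8 tags. Just inside it were Rpl7 at 957 bp and Rpl38 at 887 bp.

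At other members the nearest MEIS2 summit was far off. At Rpl36a it lay 37969 and 37986 bp away, at Rpl39 33391 and 33269 bp, and at Rps27a, whose product is fused to ubiquitin, 19385 and 19441 bp. At Rpl10, which completes the large subunit late in assembly, it lay 8703 and 15759 bp away. At Rpl3, of the peptidyl transferase region, it lay 2987 and 8000 bp away. Rps9, Rps27 and Rps28 had none within 3290, 4301 and 5168 bp of an end in either replicate. Rpl32l had its nearest summits 2138 and 2159 bp away. Rpl23a, a protein of the tunnel exit, had its nearest summits 2196 and 1979 bp away, outside the gene.

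A further 9 members had a peak in replicate 1 alone. Among them were Rpl3l, Rpl4, Rpl8, Rpl28, Rpl35, Rps15 and Rps18. Rpl35 had 2 such peaks, of 19 tags and 5.78 at its 5′ end and of 14 tags and 4.66 at its 3′ end. Rpl8, with the widest at 991 bp, had 15 tags and a fold enrichment of 5.50. Rps15 had 14 tags and 3.91, Rpl3l 13 and 5.69, Rpl28 11 and 4.25, and Rps18 11 and 3.79. The lowest pileup was 9 tags, as at Rpl4 with a fold enrichment of 5.88. Fold enrichments in this group thus lay below 7.55, the replicate 1 median of the 58 genes. Rps4x had a peak in replicate 2 alone, of 7 tags and fold enrichment 4.81, with its summit 41 bp inside the gene. Rpl26 had peaks in both libraries that did not overlap, 2 in replicate 1 with 14 and 7 tags and 1 in replicate 2 with 5 tags.

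All 4 X-linked members, Rpl10, Rpl36a, Rpl39 and Rps4x, were without a reproducible peak, while 58 of 79 members on the autosomes had one. Over all protein-coding genes on the X chromosome, 344 of 966 (35.6%) had one. The X chromosome was singled out after its values were seen, and it holds 4 members only.

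Paralog pairs did not share a single pattern of peaks, and expression of either paralog was not measured here. Rpl10l and Rpl39l, known from the testis, had reproducible peaks, while Rpl10 and Rpl39 had none. Rpl10l and Rpl39l lie on chromosomes 12 and 16. Rpl10 and Rpl39 lie on the X chromosome, where 35.6% of all protein-coding genes had a reproducible peak. In these pairs paralog and chromosome cannot be told apart. Rpl10l had pileups of 16 and 9 tags and fold enrichments of 9.06 and 6.13. Rpl39l had pileups of 10 and 9 tags and fold enrichments of 6.47 and 6.38. Rpl22l1 likewise had a peak, with 19 and 7 tags and fold enrichments of 11.8 and 5.10, while Rpl22 had none within 1 kb of an end. Neither Rpl3 nor Rpl3l, the form of striated muscle, had a reproducible peak, and neither did Rps27 or Rps27l. For Rpl7 and Rpl7l1 it was Rpl7 that carried the peak. Rps4l is annotated as a pseudogene in this table and is not a member.

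Many ribosomal protein genes are known to host small nucleolar RNAs in their introns. By table position, 29 members contain 58 such RNAs. A reproducible peak lay at 22 of these 29 genes and at 36 of the 54 members that host none, against 52.4% of all protein-coding genes. Other host genes were not counted, and the split was not tested. Rpl4, with 5, had none, while Rpl7a and Rpl13a, with 4 each, had one.

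Motifs of general factors were found in many promoters of the members. The windows of 300 bases were set beside those of 17492 protein-coding genes and of all 27025 promoters in the table, noncoding genes included. CGGAAG was found on either strand in 41 of 63 member promoters (65.1%), against 21.5% of protein-coding and 17.2% of all promoters. ATGGCG was found in 20 (31.7%), against 11.2% and 9.25%. GGGCGG was found in 37 (58.7%), against 46.3% and 35.9%, so its gap was smaller beside protein-coding genes. CCAAT was found in 19 (30.2%), against 39.2% and 38.0%. TATAAA was found in 8 (12.7%), against 13.3% and 14.2%. A C followed by at least 4 pyrimidines stood exactly at the annotated start in 13 members (20.6%), against 2.17% and 2.48%. These differences were not tested. Among the members with no entry in the promoter table were Rpl3, Rpl7, Rpl8, Rpl17, Rpl21, Rpl23a, Rpl29, Rpl30, Rpl32, Rpl36, Rplp1, Rps14, Rps20, Rps27a and Rps29. The TGACAG core was found in 9 (14.3%), against 18.7% of protein-coding and 19.3% of all promoters. Of the members with a reproducible peak 6 of 45 (13.3%) had it, and of those without one 3 of 18 (16.7%). In the same order, GGGCGG was found in 31 (68.9%) against 6 (33.3%) and TATAAA in 3 (6.67%) against 5 (27.8%). CGGAAG was found in 66.7% against 61.1%, CCAAT in 31.1% against 27.8% and ATGGCG in 28.9% against 38.9%. The pyrimidine start was found in 17.8% against 27.8%. These splits of few genes were not tested.

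The 9 member promoters with the core hold 10 matches, which are shown as 30 bases each, 5′ to 3′ on the gene's strand, with the core or its reverse complement in capitals. The first 6 belong to genes with a reproducible peak and the last 4 to genes without one.
Rpl34, chr3:130730582-130730611, − strand, core beginning 201 bases before the start: gggacgcctcctCTGTCActcgcttttgct
Rpl38, chr11:114668344-114668373, + strand, core beginning 224 bases before the start: taataagatgagTGACAGaaagaggggaca
Rpl7a, chr2:26910682-26910711, + strand, core beginning 113 bases before the start: ggctccgcccctCTGTCAgagtccgaagtg
Rplp2, chr7:141447513-141447542, + strand, core beginning 126 bases before the start: gtggggaagacaTGACAGggaaatgtcttc
Rps25, chr9:44407477-44407506, + strand, core beginning 225 bases before the start: tgtatttctcagTGACAGagcagagaatta
Rps6, chr4:86857489-86857518, − strand, core beginning 139 bases before the start: aggaagctaaaaTGACAGctcgctgcaaac
Rpl10, chrX:74270566-74270595, + strand, core beginning 240 bases before the start: atagcaaaacCTGTCAatggctctccgccc
Rpl22, chr4:152324291-152324320, + strand, core beginning 133 bases before the start: cagccacgggctTGACAGacgccatagcct
Rpl22, chr4:152324438-152324467, + strand, core beginning 14 bases after the start: tccagctcccacTGACAGaataaagcaaga
Rpl3l, chr17:24727812-24727841, + strand, core beginning 2 bases before the start: agtgttctagctCTGTCAtttgacctctgg
At Rpl7a the core lay within the peak of both replicates, with the summits 129 and 47 bp away. At Rplp2 it also lay within both peaks, with the summits 101 and 94 bp away. At Rps25 it lay within the replicate 1 peak only, 335 bp from the summit. At Rpl34, Rpl38 and Rps6 it lay outside the peaks of both libraries, and no peak covered it at Rpl10, Rpl22 or Rpl3l. A match is a run of letters and not a shown binding site.

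Of 5 ribosomal protein genes whose symbols escape the rule, 4 had a reproducible peak. Rps3a1 had pileups of 16 and 12 tags and fold enrichments of 8.66 and 6.87. Fau, whose product is a fused small subunit protein, had 25 and 11 tags, with fold enrichments of 7.48 and 5.01. Rpl36al had 22 and 12 tags, with 7.15 and 5.58. Rack1, the scaffold protein of the small subunit, had a peak in replicate 1 only.

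Other genes of protein synthesis also carried peaks. Of 23 translation factor and other TOP genes, 19 had a reproducible peak (82.6%), 22 a replicate 1 peak and 18 a replicate 2 peak with its own summit within 1 kb. Among them were Eef1a1, the main elongation factor, with pileups of 20 and 14 tags and fold enrichments of 7.35 and 7.08, and Tpt1 with 24 and 24 tags and fold enrichments of 8.54 and 9.26. The 4 without one were Eif3l, Eif4e, Larp1 and Pabpc4. Of 30 genes of ribosome assembly and ribosomal RNA transcription, 21 had a reproducible peak (70.0%). Wdr12 had 18 and 18 tags with fold enrichments of 10.2 and 11.1, and Ncl, encoding nucleolin, had 25 and 16 tags with 7.95 and 7.30. Ubtf, which encodes a transcription factor of RNA polymerase I, had no peak at an end in either library, and neither did Pes1 or Taf1c. No gene of these lists had a no-antibody peak.

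Ribosomal protein pseudogenes, mostly intronless copies scattered over the genome, also carried peaks. Of 318 pseudogenes named after a ribosomal protein, 50 (15.7%) did so in both replicates by the same rule, against 1039 of 10111 other pseudogenes (10.3%). These pseudogenes are short, with a median length of 531 bp against 943 bp for the others. At 43 of the 50 the summit lay within the copy itself (86.0%), against 64.0% for the other pseudogenes with a peak. At all 50 the summit lay over 1 kb from the nearest end of a protein-coding gene, against all but 68 of the 1039 others. It lay over 5 kb away at 46 of the 50 (92.0%), against 84.4% of the others, so most pseudogene peaks of either kind were remote. Median pileup was 12 and 8 tags and median fold enrichment 7.06 and 5.74, close to the 7.55 and 5.79 at the genes. By count, copies of Rps12 were the most frequent, with 7 of 23, then Rpsa with 5 of 12 and Rps2 with 4 of 12. As a share of its copies Rps12 stood below both of these. Its copies Rps12-ps11 to Rps12-ps15 all lie on the X chromosome. The copy Rpl36-ps12, with 27 and 21 tags and fold enrichments of 15.8 and 13.9, was 1 of 3 copies above every member gene in fold enrichment in both replicates. The highest was Rpl12-ps1, with 69 and 72 tags and fold enrichments of 19.6 and 20.3, its summit 684 bp from an end of the copy. That distance exceeds the median copy length of 531 bp, and whether this summit lies inside or beside the copy is not given here. The third was Rps2-ps13, with 32 and 27 tags and fold enrichments of 12.95 and 13.86. Rps2-ps10 was the only such pseudogene with a no-antibody peak. Reads from a gene and its copies can be hard to place, the alignment filters are not given in the sources used here, and the part of read placement in these values was not tested.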

How the data were processed

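Peaks were called by the authors in each library separately with MACS 2.2.7.1, per the file headers, without a control file, with a q cutoff of 0.05 and at most 1 tag per position. The submitters' processing notes name MACS2 2.1.4, Bowtie2 2.3.4, Trimmomatic, Picard and mm10. Paired-end reads were 150 bp long, per the labels. The headers give redundant rates of 0.90, 0.92 and 0.91, and paired-end mode was off.

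The deposited signal is the pileup at the summit, not scaled to depth, and the deposited fold enrichment is a ratio to the local background within each library. The deposited −log10 q-value served only for a stricter threshold, and the deposited −log10 p-value was not used further. Positions are 1-based as deposited.

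Gene ends and biotypes came from RefSeq GRCm38.p6, the assembly behind mm10. Its table has no exons, and strand was taken from the promoter table. Analysis used Python 3.11.15 with pandas 2.3.3, and peak assignment was checked on planted peaks. No test was run. Members were named by rank in fold enrichment, pileup, width and summit distance within each subunit, by class of missing peak, and as paralog pairs; the others named were chosen by role or after their values were seen. The members and lists were chosen with earlier results of these data known. Values of some members are not reported here, singly or in the plot of fold enrichment by gene, though counts and medians include them.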

Additional observations from a re-analysis of the deposited data

How the results depend on the processing

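The count of 58 ribosomal protein genes with a reproducible peak ran from 42 (−log10 q of at least 5) to 68 (replicate 1 alone) under the settings tried, 2.5 kb from a gene end giving 65, except that with the 5000 strongest peaks of each list it was 0, for the large and the small subunit as well (0 and 0). That setting left 26 of 21887 protein-coding genes (0.119%) with a peak. The share of members, against that of all protein-coding genes, was 53.0% against 45.4% with 50% reciprocal overlap, 50.6% against 40.4% with −log10 q of at least 5, 57.8% against 43.2% at 500 bp and 68.3% against 49.5% at annotated 5′ ends. At 2.5 kb it was 78.3% against 60.7%, so both shares rose with the wider window. Leaving out a MEIS2 replicate, with the peaks of the other library clear of no-antibody peaks, gave 60 to 68 members. Of these, 38 to 43 were of the large and 22 to 25 of the small subunit. The shares were 72.3% against 55.3% without replicate 1 and 81.9% against 60.4% without replicate 2. The median summit distance was 184.5 bp with 50% reciprocal overlap, 165 bp at 500 bp and 239 bp at 2.5 kb, the last 2 bounded by their windows, and 219.5 to 235 bp with a replicate left out. The other medians moved by less than the standard deviation between the replicates in all settings that left a peak. With a replicate left out this was close to fixed in advance, because the main value is the mean of both replicate medians. Those settings therefore do not show stability. Median width was 539.5 bp with replicate 1 alone and 388.5 bp with replicate 2 alone, and median pileup was 16.5 and 10 tags. No member had a no-antibody peak under any setting run, 2.5 kb included. Pileups of 5 to 24 tags limit the precision of each peak. Peaks nearer to another protein-coding gene were left out only after the data were seen. No paired analysis was possible because no result comes from a test and the control is 1 library.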
